A study of Homo sapiens with 4 samples.

Results

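Dense acetylated domains that hold no CTCF summit were examined in DU145, an established human line of prostate cancer cells taken from a metastasis in the brain. H3K27ac peaks were joined where 12.5 kb or less lay between them, which gave 18213 domains. Domains of 8 or more peaks are called dense here, and 1169 domains were dense. Of these, 326 held no summit of the DU145 CTCF peak list (27.9%), and the other 843 held at least 1. These 326 were chosen by the positions of the H3K27ac peaks and CTCF summits themselves, so their lack of CTCF and their number of peaks are not findings. Over all 18213 domains, most of them short, 79.2% held no CTCF summit.

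The study covers 4 libraries: DU145 chromatin precipitated with a CTCF antibody, DU145 chromatin precipitated with an antibody to H3K27ac (histone H3 acetylated at lysine 27), and the unprecipitated input of each of 2 lines, DU145 and LNCaP, the latter from a lymph node metastasis. The cells were grown in serum-containing medium with no treatment named in the labels, then fixed with formaldehyde. Each mark had 1 library, so no value below has a replicate error. Poisson intervals cover the counting error of fragments only. Wilson and exact binomial intervals treat domains or peaks as independent draws, although these are not replicates, and say nothing of the spread between libraries. Total read numbers were not analysed here. The peaks in the 326 domains rested on a median of 21 fragments at the summit (range 10 to 378).

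H3K27ac lies on nucleosomes at active promoters and enhancers. Long runs of closely spaced H3K27ac peaks are often called super-enhancers, or mark neighbouring active genes. CTCF is a zinc finger protein that binds DNA at insulators and stops the loop extrusion of cohesin, so its sites commonly form the borders of chromatin loops. A domain without an internal CTCF summit is therefore a stretch of acetylated chromatin that this list does not divide.

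Promoter sequences are shown for 4 genes of the longest of these domains, because H3K27ac marks active promoters. Each is the 250 bases before the RefSeq start of the gene, 5′ to 3′ on the strand of the gene, from RefSeq's GRCh38.p14; these coordinates belong to that build and cannot be set against the hg19 positions of the peaks. They were taken from a list, set by hand, of genes held to start in these domains. BCL2L13 and RNF40, named below, were not on that list, nor were EGFR and ZMIZ1. The 4 shown were the first on it, in order of domain length, with no other RefSeq gene in the window. Capitals mark matches to the GC box GGGCGG, bound by SP and KLF proteins, on either strand.
SMAD3 (+ strand, chr15:67065352-67065601): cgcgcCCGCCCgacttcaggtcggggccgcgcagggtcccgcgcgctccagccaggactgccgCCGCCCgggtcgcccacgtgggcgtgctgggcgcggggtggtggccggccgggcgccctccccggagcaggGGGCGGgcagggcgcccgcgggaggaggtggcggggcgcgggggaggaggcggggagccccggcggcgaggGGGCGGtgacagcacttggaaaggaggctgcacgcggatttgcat
DYNC1H1 (+ strand, chr14:101964323-101964572): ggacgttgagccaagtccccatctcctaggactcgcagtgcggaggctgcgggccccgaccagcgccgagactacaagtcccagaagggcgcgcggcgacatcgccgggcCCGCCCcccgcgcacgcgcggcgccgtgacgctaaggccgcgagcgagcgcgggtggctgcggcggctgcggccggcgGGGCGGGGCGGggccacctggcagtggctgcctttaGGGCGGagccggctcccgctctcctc
KLF13 (+ strand, chr15:31326585-31326834): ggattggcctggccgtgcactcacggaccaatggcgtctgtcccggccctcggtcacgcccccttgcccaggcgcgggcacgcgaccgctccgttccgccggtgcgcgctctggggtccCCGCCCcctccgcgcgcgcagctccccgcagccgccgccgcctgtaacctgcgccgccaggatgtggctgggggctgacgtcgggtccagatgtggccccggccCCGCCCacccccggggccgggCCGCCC
DNMT1 (− strand, chr19:10194954-10195203): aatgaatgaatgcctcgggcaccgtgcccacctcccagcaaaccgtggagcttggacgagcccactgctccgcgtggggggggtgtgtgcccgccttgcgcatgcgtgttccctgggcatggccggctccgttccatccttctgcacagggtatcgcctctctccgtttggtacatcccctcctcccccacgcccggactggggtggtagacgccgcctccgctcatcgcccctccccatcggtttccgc

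The SMAD3 and DYNC1H1 windows each held 4 GC boxes, the KLF13 window 3 and the DNMT1 window 0; in DYNC1H1 2 of the matches overlap by a G. All 4 windows were rich in G and C, from 66.8% in DNMT1 to 80.8% in SMAD3, against a median of 58% over the 27305 promoter windows of the same length. They held between 21 (DNMT1) and 37 (DYNC1H1) CG dinucleotides, against a median of 11. Over all windows, 42.3% held a GC box. None of the 4 held the AP-1 letters TGANTCA on either strand, which 6.60% of all windows held. A match is a description of the letters and not a bound site.

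The 326 domains were mostly between 20 and 40 kb long. Their length ranged from 7.17 to 130 kb with a median of 30.4 kb (quartiles 22.5 and 40.3), and together they spanned 10.6 Mb. They held 3684 H3K27ac peaks, 7.31% of all, with a median of 10 and a maximum of 53 peaks in a domain. Only 36 were longer than 50 kb, and 13 had 20 or more peaks. Dense domains with a CTCF summit were longer, with a median of 40.5 kb (quartiles 29.5 and 57.6) and 12 peaks. A longer domain has more room for a CTCF summit, so length and the lack of CTCF are tied by the rule itself.

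**Figure D1:**
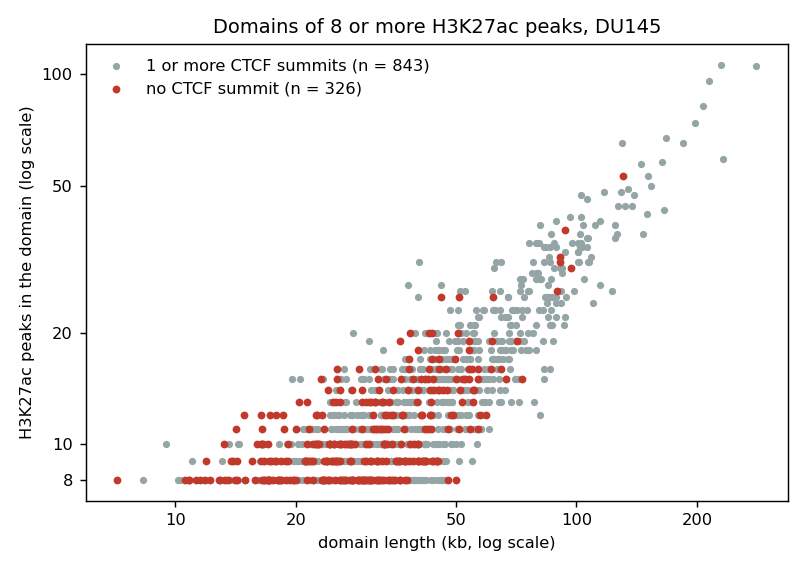
Each point is 1 of the 1169 dense domains, by length in kb and number of H3K27ac peaks (both log scales); red points hold no CTCF summit and are drawn over the grey ones, which hold at least 1. The red points crowd below 50 kb and 20 peaks, and 1 of them, at 130 kb and 53 peaks, stands beyond the rest.

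The share of dense domains without CTCF fell from class to class of size. It was 42.5% for 8 to 9 peaks (153 of 360; Wilson 95% interval 37.5 to 47.7), 28.5% for 10 to 12, 22.9% for 13 to 19 and 7.07% for 20 or more (13 of 184; interval 4.18 to 11.7). By length it was 54.6% below 20 kb (65 of 119), 32.9% from 20 to 40 kb, 23.7% from 40 to 60 kb and 7.55% from 60 to 100 kb. Of the 52 dense domains of 100 kb or more, 1 held no CTCF summit, 1.92% (interval 0.340 to 10.1); this was the domain over SMAD3. The dense domains together held 41.96 CTCF summits per Mb, and those with CTCF 52.8 per Mb.

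**Figure D2:**
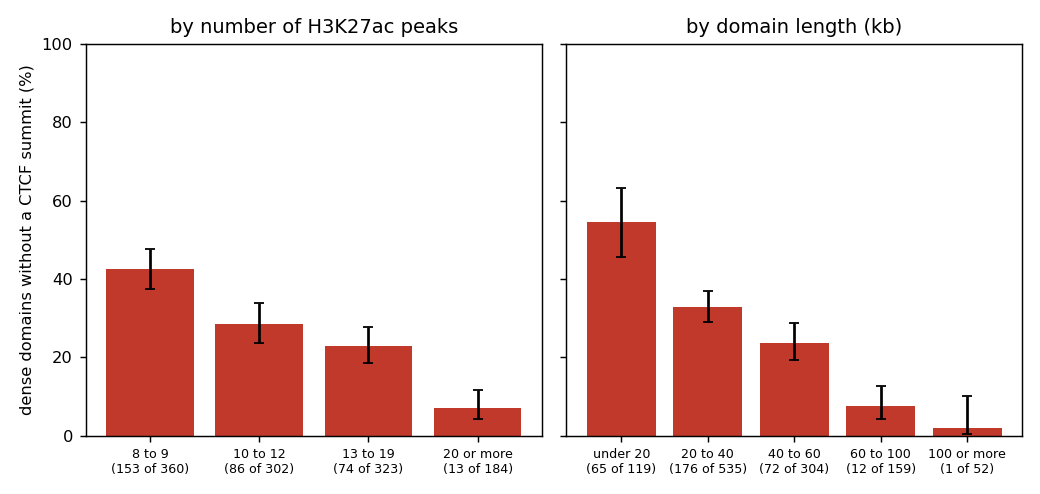
Bars give the percent of dense domains that hold no CTCF summit, by number of H3K27ac peaks (left) and by domain length in kb (right); error bars are Wilson 95% intervals and the numbers below give the counts. The share is lower in each larger class, down to 7.07% at 20 or more peaks and 1.92% at 100 kb or more.

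Within the same range of peak number, the domains without CTCF were somewhat shorter. For 8 to 9 peaks the median length was 25.6 kb without CTCF (n = 153) and 27.5 kb with it (n = 207), for 10 to 12 peaks 28.7 against 32.9 kb, and for 13 to 19 peaks 41.4 against 47.0 kb. For 20 or more peaks it was 62.1 kb (n = 13) against 84.5 kb (n = 171). The largest class has no upper limit, so peak number can differ there between the sets. Over all sizes, where peak number was not held equal, the domains without CTCF had a median of 3.55 peaks per 10 kb against 3.29. No test was made between the sets, because the same peaks chose them.

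Within the domains without CTCF, acetylation was uneven: a few strong peaks stood among many weak ones. The strongest peak of a domain had a median fold enrichment over local background of 20.2 (quartiles 13.6 and 30.1, range 3.53 to 56.5), while the median peak of a domain had a median of 4.10. Strong peaks are those in the upper 25% of the whole H3K27ac list, at a fold of 8.38 or more. They made up 17.9% of the 3684 peaks (19.2% in dense domains with CTCF). Exactly 1 strong peak was found in 96 domains, 2 in 96 and 3 in 66; 32 had 0 and 13 had 5 or more. The strongest peak alone carried a median of 44.9% of the summed fold times width of its domain. Peaks covered a median of 30.3% of the domain (range 7.71 to 81.6). The median gap within a domain had a median over domains of 0.900 kb. The longest gap of a domain had a median of 8.11 kb (quartiles 5.21 and 10.4), against the 12.5 kb allowed. Dense domains with CTCF also held a few strong peaks among weak ones. Their strongest peak had a median fold of 23.9 and carried 39.5% of the summed fold times width. Their median peak had a median of 4.24 and peaks covered 29.4%. The median gap within a domain had a median of 0.994 kb, and the longest gap one of 9.06 kb.

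The strongest peak lay in the outer parts of the domain more often than the peaks at large, as a description with no test. It was in the lowest 20% of the length in 101 domains and in the highest 20% in 107, together 63.8% (Wilson interval 58.5 to 68.8). Of all peaks in these domains, 46.7% lay in the same outer parts. It was the first or last peak in 92 (28.2%), where 17.7% of all their peaks are first or last. In the dense domains with CTCF the outer parts held it in 52.3% (interval 48.9 to 55.7), beside 44.3% of all peaks there, and it was first or last in 24.7%, beside 12.6% of all peaks. Those domains have more peaks, and the share was not compared at equal peak number. In both sets the shares of all peaks pool every domain, so domains with many peaks weigh more in them. The strongest peak instead counts once per domain. First and last peaks are a smaller part of a domain with many peaks, so 17.7% and 12.6% are low baselines for a count per domain.

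Within the same range of peak number, the strongest peaks of domains without CTCF had lower median folds than those of domains with it in 3 of 4 size classes. For 8 to 9 peaks the median of the strongest fold was 20.3 without CTCF and 21.4 with it, for 10 to 12 peaks 17.9 and 22.9, for 13 to 19 peaks 20.9 and 25.6, and for 20 or more peaks 31.4 and 27.6, so the order turned in the largest class, with 13 domains without CTCF. Strong peaks made up 21.1% of the peaks without CTCF and 23.2% with it at 8 to 9 peaks (Wilson intervals 18.9 to 23.4 and 21.3 to 25.3), and 16.5% and 22.6% at 10 to 12 peaks (14.2 to 18.99 and 21.0 to 24.3). Local background, in fragments, had a median over domains of 3.89 without CTCF and 3.76 with it, near the lowest level of 3.18 that the list holds.

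Of the 326 domains, 2 stood out by local background. A domain at chromosome 5, 17580742 to 17599380, had a median background of 19.4 fragments and a strongest fold of 3.53, the lowest of all 326. A domain on 7_gl000195_random, a contig of chromosome 7 with no set place, had 19.2 fragments and a strongest fold of 14.7. What raised the background there was not tested. Both were picked after their values were seen.

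Distances to the first CTCF summits outside are given for the nearer and the farther edge of each domain, so 1 side is nearer by definition. From the nearer edge, the first CTCF summit lay at a median of 14.4 kb (quartiles 3.93 and 30.1, range 0.024 to 226 kb). On the farther side the median was 49.6 kb (quartiles 26.9 and 97.6, n = 325). The lower-coordinate side and the higher-coordinate side were alike, with medians of 29.2 and 27.7 kb. A summit lay within 1 kb of an edge for 30 domains (9.20%) and within 5 kb for 90 (27.6%). Both summits lay within 12.5 kb for 22 of 325 domains (6.77%), both beyond 50 kb for 37 (11.4%) and both beyond 100 kb for 6 (1.85%).

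**Figure D3:**
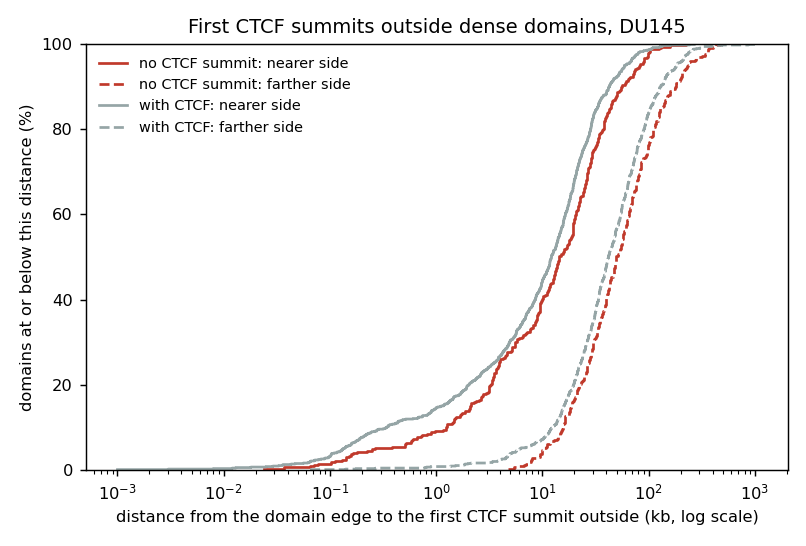
Curves give the percent of dense domains whose first CTCF summit outside lies at or below a distance in kb (log scale), for the nearer and the farther edge, for the 326 domains without CTCF (red) and the 843 with it (grey). Red curves lie to the right for most of their course, with medians of 14.4 and 49.6 kb against 12.1 and 41.8 kb.

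Dense domains with CTCF had their first outside summits at medians of 12.1 kb on the nearer side (quartiles 3.47 and 24.0) and 41.8 kb on the farther side. The nearer median was thus somewhat longer without CTCF. Its exact binomial 95% intervals overlapped: 12.7 to 19.3 kb without CTCF and 10.98 to 13.8 kb with it. The rule used these same CTCF summits, and the sets were not compared here at equal peak number. These values and the next are therefore a description only. Summits within 0.5 kb of an edge were found for 18 of 326 domains without CTCF (5.52%; Wilson interval 3.52 to 8.56) and for 100 of 843 with it (11.9%; interval 9.85 to 14.2).

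The stretch free of CTCF around the domains, from summit to summit, had a median of 104 kb (quartiles 70.4 and 162, n = 325). Neighbouring CTCF summits of the whole list lay 35.1 kb apart in the median. A stretch must be longer than the domain it holds, so the values are not independent of the rule. The domain filled a median of 30.8% of its stretch (range 2.32 to 91.7). In 96 of 325 cases no other H3K27ac summit lay in the stretch (29.5%), and the median number of others was 2 (maximum 53). The CTCF peaks at the ends were slightly stronger than the whole list. Their median fold was 10.7 (n = 651, exact binomial interval 9.89 to 11.3), against 9.52 for all CTCF peaks. A −log10 q of 10 was reached by 83.4% (Wilson interval 80.4 to 86.1), against 79.8% of all. The first summits outside dense domains with CTCF had similar values, a median fold of 11.1 and 84.1%. For dense domains with CTCF, the first outside summits lay 109 kb apart in the median, but that span holds longer domains with CTCF inside. The domain filled more of it, a median of 42.2% (exact binomial interval 39.6 to 45.4), against 30.8% (27.3 to 33.4) without CTCF. Other H3K27ac peaks were alike. No H3K27ac summit beyond the domain lay between the outside summits in 259 of 841 cases with CTCF (30.8%), and the median number of others was 2.

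Pairs of these domains shared a CTCF-free stretch in 6 cases. On chromosome 2, domains at 240167581 to 240202534 and at 240225538 to 240251955 shared a stretch of 544 kb within the region of HDAC4, a histone deacetylase; their strongest folds were 28.9 and 5.99. On chromosome 14, domains at 61991561 to 62033542 and 62189079 to 62230331 shared 362 kb; the second lies at HIF1A, the oxygen-regulated transcription factor. Their strongest folds were 26.98 and 12.9. On chromosome 1, the pair at 214597093 to 214622403 and 214667293 to 214699665 shared 218 kb in PTPN14, a phosphatase that restrains YAP, with strongest folds of 9.84 and 7.42. The 3 pairs named were picked after their values were seen.

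Gene names are given for single domains as background knowledge of where genes lie in hg19, since no annotation of that build was used; each was checked only for its chromosome. The domain with the most peaks, the greatest length and the highest summed fold times width lay at chromosome 15, 67357199 to 67487485, over SMAD3. SMAD3 is the transcription factor that receptors of TGF-beta and activin phosphorylate, and it carries their signal to the nucleus. RefSeq lists SMAD6, an inhibitory member of the family, and AAGAB as its neighbours.

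The SMAD3 domain had 53 peaks in 130 kb, and 59.2% of it lay in peaks. Of these peaks 10 were strong, the largest number in any of the 326 domains. The strongest, at 67396345 to 67401366, spanned 5.02 kb with its summit 42.7 kb from the lower edge, with a fold of 39.2 from 204 fragments (exact Poisson 95% interval 177 to 234). Its strong peaks were spread along the domain rather than gathered at an edge. Folds of 17.1, 16.1 and 15.7 were found 86.3, 60.4 and 56.6 kb from the lower edge, a fold of 15.4 at 27.1 kb and a fold of 14.5 at 111 kb. The peak at the lower edge, 4.30 kb wide, had a fold of 14.1 from 90 fragments (interval 72.4 to 111).

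CTCF was far from SMAD3 on both sides and weak where it first appeared. The first summits lay 98.4 and 109 kb outside the edges, with folds of 5.03 and 5.48, below the list's median of 9.52. The CTCF-free stretch was 338 kb, of which the domain filled 38.6%. Among CTCF peaks at or above the median fold, the nearest lay 118 and 262 kb away and the stretch was 510 kb. The domain kept an internal gap of at most 5.36 kb, against the 12.5 kb allowed.

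**Figure D4:**
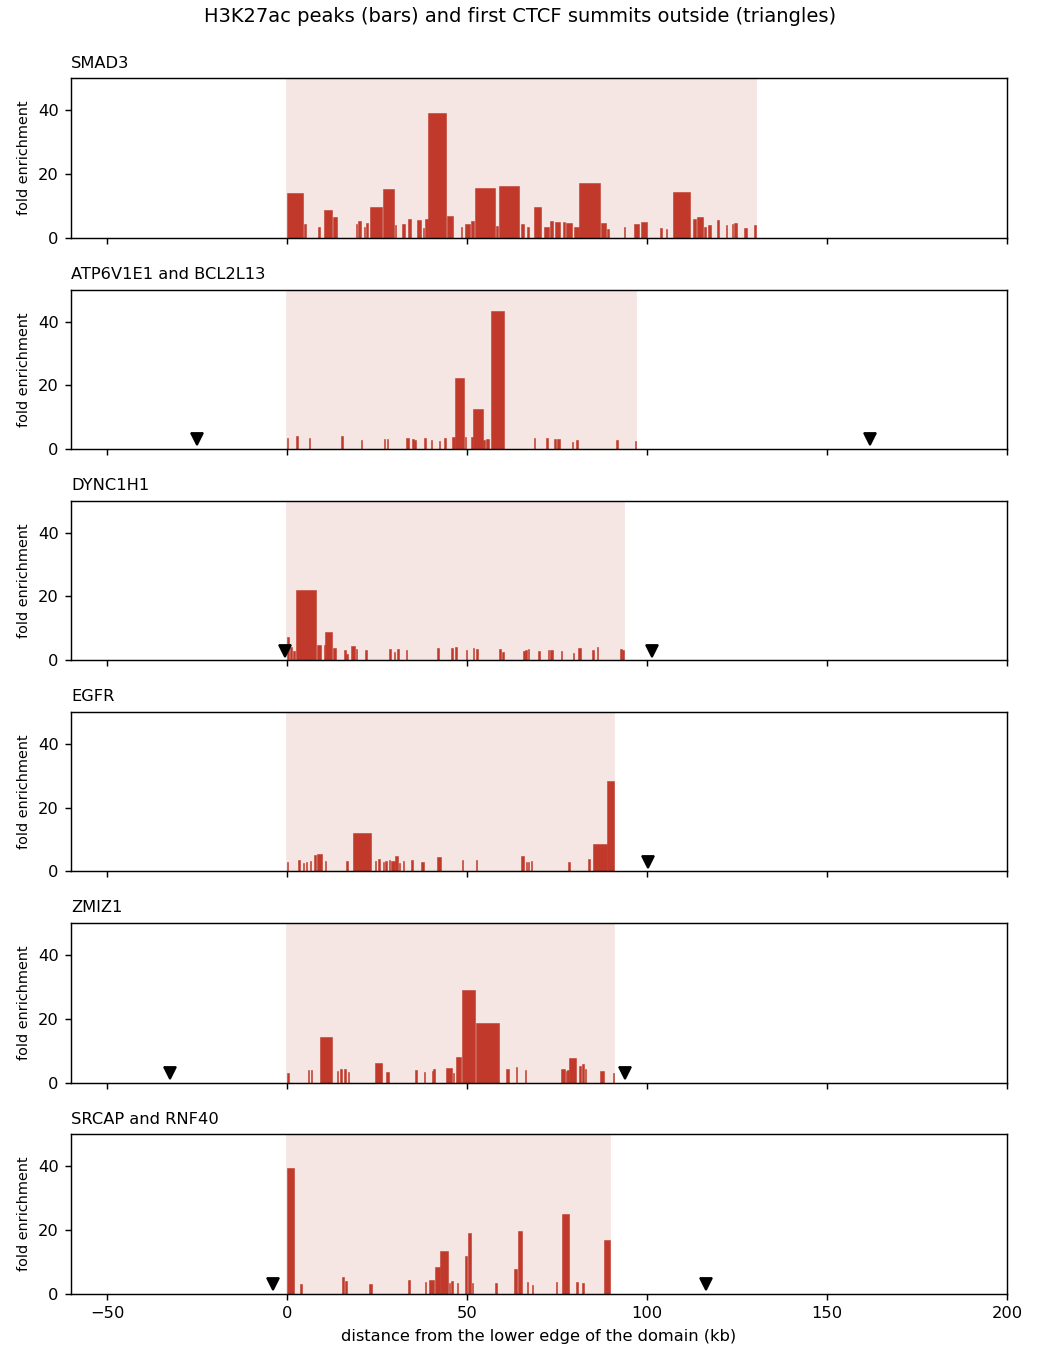
Each panel is 1 of the 6 longest domains without CTCF (shaded), with its H3K27ac peaks as bars of their own width and with the authors' fold enrichment as height; the horizontal axis is the distance from the lower edge in kb. Triangles mark the first CTCF summits outside, where they fall within the axis; both of SMAD3 and the lower one of EGFR lie beyond it. Strong peaks run along the whole SMAD3 domain, whereas DYNC1H1 has them at 1 end and EGFR at the far end and 21.5 kb from the lower edge.

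The second longest domain, at chromosome 22, 18063344 to 18160418 (97.1 kb, 30 peaks), covers ATP6V1E1, a subunit of the proton pump of lysosomes, and the start of BCL2L13, a mitochondrial protein of the BCL2 family. Its acetylation was concentrated at the middle. The strongest peak had a fold of 43.2 from 378 fragments (interval 341 to 418) and carried 54.7% of the summed fold times width. Peaks of fold 22.4 and 12.4 lay beside it, and no other peak was strong. CTCF lay 25.1 and 65.0 kb outside with high folds of 23.5 and 21.2. The local background was 6.41 fragments in the median.

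The domain over DYNC1H1, the heavy chain of cytoplasmic dynein, at chromosome 14, 102428312 to 102521905, had 38 peaks in 93.6 kb. Its strongest peak, with a fold of 21.9 from 149 fragments (interval 126 to 175), lay 3.08 kb from the lower edge and was 5.51 kb wide; only 1 other peak was strong, with a fold of 9.0. CTCF closely bordered this domain. A summit of fold 24.1 lay 720 bases below the lower edge and another of fold 6.39 lay 7.78 kb above the upper edge, so the domain filled 91.7% of the CTCF-free stretch, the highest share of the 325. No other H3K27ac summit lay in that stretch.

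The fourth longest, at chromosome 7, 55111816 to 55202658 (90.8 kb, 32 peaks), lies inside EGFR, the epidermal growth factor receptor, downstream of its start. It had 3 strong peaks. The strongest, with a fold of 28.3 from 186 fragments (interval 160 to 215), was its last peak, 89.3 kb from the lower edge, beside a peak of fold 8.54. The other strong peak had a fold of 11.97, lay 21.5 kb from the lower edge and was 5.01 kb wide. CTCF was distant below, at 202 kb, and near above, at 9.52 kb with a low fold of 4.94. At or above the median CTCF fold, the nearest upper summit was 120 kb away.

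ZMIZ1, a coactivator that binds the androgen receptor and SMAD proteins, holds the fifth longest domain, at chromosome 10, 80861517 to 80952251 (90.7 kb, 31 peaks). Neighbouring peaks of fold 29.0 (141 fragments, interval 119 to 166) and 18.7 lay near its middle and a peak of 14.4 lay 11.3 kb from the lower edge. CTCF lay 32.5 kb below with a fold of 6.86 and 3.13 kb above with a fold of 17.5. The median local background of its peaks was at the lowest level of the list.

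The sixth longest, at chromosome 16, 30709426 to 30799045 (89.6 kb, 26 peaks), covers several genes, among them SRCAP, a chromatin remodeler that places the histone variant H2A.Z, and RNF40, a ubiquitin ligase for histone H2B. It had 8 strong peaks between 0.701 and 2.30 kb wide, against 1.95 to 5.63 kb for the strong peaks of the SMAD3 domain. The first peak of the domain was the strongest, with a fold of 39.5 from 260 fragments (interval 229 to 294). Folds of 24.97, 19.8, 19.04 and 16.9 followed at 77.7, 64.5, 50.5 and 88.9 kb. Peaks covered 22.9% of this domain, against 59.2% of the SMAD3 domain. CTCF lay 3.98 kb below and 26.7 kb above.

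The next 9 domains by length, from 57.5 to 73.1 kb, had 12 to 25 peaks. The domain at chromosome 15, 31617817 to 31690873, over KLF13, a GC-box-binding repressor, had its 2 strong peaks (folds 16.9 and 11.6) at its lower end; CTCF lay 110 and 36.8 kb away. The domain at chromosome 19, 10246183 to 10317352, over DNMT1, the maintenance DNA methyltransferase, had 1 strong peak, with a fold of 19.1 from 125 fragments. The domain at chromosome 20, 48272897 to 48334983, over B4GALT5, a galactosyltransferase, had 25 peaks, 5 of them strong, in 62.1 kb and was 49.5% covered. Its strongest fold was 29.6 and CTCF lay 45.1 and 94.4 kb away.

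Among the same 9, the highest fold was 55.4 from 242 fragments (interval 212 to 274), in the domain at chromosome 5, 179104464 to 179169218, over CANX, the calnexin chaperone of the endoplasmic reticulum. It was followed by a fold of 50.5 at HAPSTR1, a stress-response regulator, in the domain at chromosome 16, 9160764 to 9221939, and a fold of 32.4 at POLE, the catalytic subunit of DNA polymerase epsilon, at chromosome 12, 133251064 to 133317938. Lower strongest folds were found over PPP1R13B, a p53-binding protein (17.9, chromosome 14, 104304096 to 104361599), ASAP2, an ARF GTPase-activating protein (15.7, chromosome 2, 9371096 to 9432704), and TIMP2, an inhibitor of matrix metalloproteinases (13.7, chromosome 17, 76871532 to 76931028). Length therefore did not order these domains by strength.

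The strongest single peak of all 326 domains was in a short one, at chromosome 20, 44562398 to 44579014 (16.6 kb, 8 peaks), at PCIF1, an RNA cap methyltransferase. It had a fold of 56.5 from 235 fragments (interval 206 to 267). The widest CTCF-free stretch, 711 kb, surrounded a domain of 16.5 kb and 10 peaks at chromosome 1, 169074857 to 169091384, at the start of ATP1B1, the beta subunit of the sodium pump. CTCF lay 468 kb below and 226 kb above, with folds of 11.9 and 11.6, and the domain filled 2.32% of the stretch. Its strongest peak, of fold 22.5, carried 75.1% of its summed fold times width.

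At the other extreme, a CTCF summit of fold 18.4 lay 24 bases beyond the upper edge of the domain at chromosome 1, 2322126 to 2345930, around RER1 and PEX10, genes of endoplasmic reticulum retrieval and peroxisome assembly. The rule counts such a domain as free of CTCF. In 11 of the 326 domains a CTCF peak shared bases with the domain although its summit lay outside.

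Domains of many weak peaks were also among the 326. At chromosome 3, 165523575 to 165562018, in the region of BCHE, butyrylcholinesterase, 20 peaks in 38.4 kb reached a strongest fold of 5.87, with 0 strong peaks. At chromosome 5, 142690358 to 142735392, inside NR3C1, the glucocorticoid receptor, 9 peaks in 45.0 kb reached 4.17 and covered 7.71% of the domain, the least of all. By contrast, 13 peaks in 32.8 kb at chromosome 6, 27774900 to 27807672, among replication-dependent histone genes, had a median fold of 13.02, the highest of the 326, and 8 strong peaks. The second highest summed fold times width, 548 against 885 at SMAD3, was at chromosome 9, 21546719 to 21593289, at the start of MIR31HG, the host transcript of miR-31; it had 14 peaks, a strongest fold of 47.6 and 63.1% of its length in peaks. These 4 were picked after their values were seen.

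Just inside the limit on peak number, 86 domains without CTCF had exactly 8 peaks, 24.2 kb long in the median, and their median strongest fold was 21.5. Just outside it, 137 domains without CTCF had 7 peaks, with 19.8 kb and 16.1. Among domains of 8 peaks the longest was in IGF1R, the insulin-like growth factor receptor, at chromosome 15, 99248461 to 99298491 (50.03 kb, strongest fold 13.7). The next were at HARS1, UBALD2, NPLOC4, and MCOLN1 and PNPLA6, between 36.3 and 47.9 kb long with strongest folds from 8.39 to 50.1. The 5 longest domains of 7 peaks without CTCF were 38.4 to 48.3 kb long with strongest folds from 6.33 to 17.2; they include the regions of ZBTB38 and of the cytokine gene CSF2.

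Just outside the limit on CTCF, 314 dense domains held exactly 1 summit, with a median length of 33.9 kb, 11 peaks and a strongest fold of 21.4. That summit lay a median of 5.82 kb from the nearer edge, and within 1 kb of it in 56 (17.8%). The longest of them was in SEPTIN9, at chromosome 17, 75347520 to 75477156, with 65 peaks in 129.6 kb. It thus nearly matched the SMAD3 domain in length and exceeded it in peaks, but its strongest fold was 10.54 and 1 of its peaks was strong. The others of the 5 longest were in the regions of RHPN2, TXNRD1 and MTCL1 and at chromosome 14, 31428151 to 31532082, with lengths of 102.3 to 106.4 kb and strongest folds of 14.4 to 37.7.

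Domains without CTCF were found on chromosomes 1 to 22 and X, with 324 on assembled chromosomes and 2 on other contigs. Chromosome 1 had 27, chromosome 19 had 26 and chromosome 16 had 25. Among chromosomes with more than 20 dense domains, the share without CTCF was lowest on chromosome 17, at 16.5% (20 of 121; Wilson interval 10.96 to 24.2), and highest on chromosome 15, at 43.2% (16 of 37; interval 28.7 to 59.1). Chromosome 4 had 41.9% (13 of 31; interval 26.4 to 59.2). These are the extremes of the chromosomes, given as a description, since the share is what the rule used. H3K27ac peaks per CTCF peak numbered 2.04 on chromosome 17 and 1.296 on chromosome 15. Over all dense domains the share was 27.9%. At low ratios, between 1.04 and 1.16, chromosomes 4, 8, 3 and 2 had 41.9%, 36.4%, 39.0% and 33.3%. Their Wilson intervals, 26.4 to 59.2, 22.2 to 53.4, 25.7 to 54.3 and 21.4 to 47.9, all include 27.9%. At high ratios, chromosome 9 (1.64) had 20.6%, chromosome 22 (2.05) 24.4% and chromosome 19 (2.07) 22.8%, while chromosome 16 (1.94) had 34.7%. The intervals of these include 27.9% as well, so the counts are too small to read a trend with the ratio. At ratios between 1.33 and 1.57, chromosomes 11, 12, 7, 10, 1, 14 and 20 had between 22.2% (chromosome 10) and 31.6% (chromosome 20). The ratio counts the same peaks that the rule used, and domain size was not held equal.

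Chromosomes 13, 18 and X had few dense domains: 3 of 3, 1 of 5 and 2 of 5 held no CTCF summit, too few to set apart. The domain on 17_ctg5_hap1, an alternative haplotype contig, began near the first base of the contig and had no CTCF summit below it, so it has no stretch length.

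**Figure D5:**
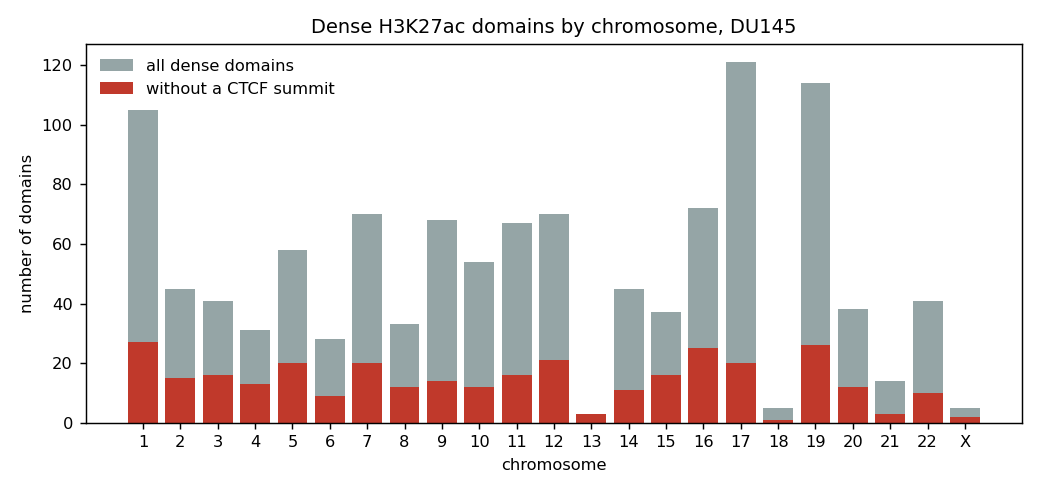
Bars give the number of dense domains on each chromosome (grey, full height) and, drawn over them in red, those that hold no CTCF summit. Chromosome 17 has the most dense domains, 121, but 20 without CTCF; all 3 of chromosome 13 are without it.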

How the data were processed

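The authors deposited 1 narrow peak list for DU145 CTCF (36152 peaks) and 1 for DU145 H3K27ac (50364 peaks). Bowtie, MACS2 and the build hg19 are named in the submitters' processing notes. Not given in the sources used here: their versions, settings and the background input. Each peak has, as the authors deposited it, a score in whole numbers, a summit offset and a fold enrichment at the summit, which is a linear ratio. The authors also deposited its p-value and q-value, both as −log10. Each list was called on 1 library, per the labels. Positions count from 1.

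H3K27ac peaks were joined across gaps of up to 12.5 kb. A domain held a CTCF summit if start plus offset fell inside it. Fragment numbers and local background were solved from fold and −log10 p of the peaks in dense domains, within 0.002 on −log10 p, for 100% of them; they set the Poisson intervals, since library depth is not in the lists. Medians have exact binomial and shares Wilson intervals at 95%. The steps were tested on simulated data. Python 3.11.15, pandas 2.3.3 and scipy 1.17.1 were used. Named regions were the 15 longest, the extremes, and the 5 longest at each threshold, with exceptions stated. The members, lists and tests were chosen with earlier results of these data known. Planned gene lists and cell type markers were not used here, as no hg19 annotation was used. Each gene name given is general knowledge.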

Additional observations from a re-analysis of the deposited data

How the results depend on the processing

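No paired analysis was possible because each mark had 1 library and no result comes from a test. Of 54 alternative values, 25 stayed within their limits (1.5 times for the number of domains, the 95% interval otherwise) and 29 moved. Requiring no shared base with a CTCF peak (315 domains) and using assembled chromosomes only (324) moved none of the 6 results. With a joining gap of 5 kb the 277 domains were 40.2% of dense domains, with medians of 19.1 kb in length, 11.1 kb to the nearer CTCF summit, 82.9 kb of CTCF-free stretch and a strongest fold of 19.1. With 20 kb, 326 domains were 23.9%, with 37.8 kb in length and a stretch of 126 kb. With 6 or more peaks there were 652 (36.1%), with 23.5 kb and a fold of 18.0. With 12 or more there were 110 (18.97%), with 41.6 kb, 11.8 kb to CTCF and a fold of 22.1. CTCF peaks of −log10 q of 10 or more left 397 domains free (34.0%), with a stretch of 124 kb. CTCF peaks at or above the median fold left 531 (45.4%), with 32.4 kb in length, 25.5 kb to CTCF and a stretch of 153 kb. H3K27ac peaks of −log10 q of 10 or more left 96 dense domains, 13 of them free (13.5%), with 40.4 kb in length, a stretch of 92.9 kb and a fold of 26.8; fewer peaks are joined there by construction. Equal counts do not mean equal domains: of the 326, 153 overlapped a domain that met the rule with a gap of 5 kb, 224 with 20 kb and 9 with the stricter H3K27ac list. Of the 15 longest domains, 8 did so with a gap of 5 kb, 3 with 20 kb (SMAD3, KLF13 and B4GALT5) and 3 with the stricter H3K27ac list (SMAD3, SRCAP and B4GALT5). SMAD3 and B4GALT5 were in each of these sets. The weakest peaks had 10 fragments at the summit, and 1 library per mark gives no replicate error.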
